A study of Mus musculus with 4 samples.

Results

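Cycling Lyz2-positive monocytes of the bone marrow were examined in mice with and without TLR9. They were picked out cell by cell from single-cell RNA sequencing by their raw counts of unique molecular identifiers (UMIs), each of which stands for 1 captured RNA molecule. A member had at least 5 UMIs of Lyz2, at least 2 of the monocyte genes Ccr2, Csf1r, F13a1 and Fn1 together, and at least 2 of the cell cycle genes Mki67, Top2a and Birc5 together. It also had fewer than 10 UMIs of the primary granule genes Mpo, Elane, Prtn3 and Ctsg, at most 2 of C1qa, C1qb and C1qc, and less than 1% of its UMIs from Camp and Ngp. This gave 1091 cells, 2.79% of the 39167 cells kept of 40545 in the files. Because these UMIs chose the cells, the levels of the 17 genes of the rule and of mitochondrial RNA are given below as a description of the members and not as a result.

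The study asked whether loss of TLR9 alters blood cell formation in the marrow and the supply of osteoclast precursors. Mononuclear cells were isolated by density gradient from the femur and tibia marrow of TLR9-/- (KO) and wild-type (WT) C57BL/6 mice, with 2 mice per genotype and 1 library of 5′ gene expression per mouse (10x Genomics). The libraries came from 2 experiments that each held 1 mouse of either genotype, and the labels do not say whether the library numbers mark them. The KO mice carried a disrupted Tlr9 allele and were bred in other cages than the WT mice, so that genotype and cage cannot be told apart. No treatment is named for the 4 mice, and their age and sex are not given in the sources used here. The members numbered 381 in KO library 1, 336 in KO library 2, 207 in WT library 1 and 167 in WT library 2. They held 2350979, 2545612, 1136942 and 1114053 UMIs in the same order. A member had a median of 6107, 7118, 5170 and 6466 UMIs from 2078, 2276, 1847 and 2118 genes.

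Monocytes are made in the bone marrow from proliferating precursors that come out of the granulocyte-monocyte branch. The precursors first make the proteases and peroxidase of primary granules, then switch these genes off while they take up monocyte genes such as Ly6c2, Ccr2 and Fn1 and go on dividing for a time. A dividing cell copies its DNA with the help of G1/S genes, such as those of the MCM helicase, and later makes the kinases, motors and cyclins of the G2/M programme. TLR9 is an endosomal receptor for unmethylated CpG DNA, and monocytes are among the cells from which osteoclasts form.

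Each member was set beside 2 classes of neighbouring cells from the same libraries. Non-cycling monocytes (2023 cells) met every condition but had no UMI of Mki67, Top2a or Birc5, and the name says no more than that. Of the few with at least 5000 UMIs (48, 125, 20 and 24 cells), thinned to that depth, 19.2% to 47.9% per library had 5 or more G1/S UMIs and 65.6% to 81.25% had 5 or more G2/M UMIs. Granule-rich cycling cells (1932 cells) met every condition but had 10 or more UMIs of Mpo, Elane, Prtn3 and Ctsg together. A granule-rich cell had a median of 11683, 18171, 9490 and 11938 UMIs and a non-cycling monocyte one of 3035, 3640, 2549 and 2766, so that the classes differed in depth as well. The limits fell inside continuous ranges. Of the members, 93 had a cycle gene sum of exactly 2 (median 4438 UMIs per cell), while 223 cells failed only because their sum was 1 (median 3802 UMIs). At the granule limit 35 members had a sum of 9, and 39 cells failed with a sum of 10.

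The label was checked with genes outside the rule. Ly6c2, a surface antigen of classical monocytes, stood at 4048 and 3464 counts per 1000000 UMIs of the members (CPM) in the KO libraries and at 4918 and 3096 CPM in the WT libraries, against a mean of 1008 CPM in all cells outside the 3 classes. CPM are not divided by gene length, so each gene is compared only with itself. S100a4, a calcium-binding protein of migrating myeloid cells, stood at 351 ± 23.4 CPM (SD, n = 4 libraries) in members and at 15.5 CPM in the other cells. Lgals3 (galectin-3) stood at 2325 against 171 CPM, and Ms4a6c at 1012 against 72.5. Ube2c, the ubiquitin-conjugating enzyme of mitotic exit, stood at 964 ± 71.3 CPM. All 4 libraries thus showed monocyte and cell cycle transcripts side by side, although Ly6c2 was higher still in granule-rich cycling cells. The stem and progenitor genes Kit and Cd34 were at 2.26 and 6.63 CPM, against 18.6 and 42.6 in granule-rich cycling cells. The T cell gene Cd3e was at 2.73, against 17.5 in the cells outside the 3 classes. Erythroid genes went the other way, with 8 of 12 higher than in non-cycling monocytes and 12 higher than in granule-rich cells in all 4 libraries.

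Of the gene lists used here, the G2/M genes had the largest median ratio of members over non-cycling monocytes, and promoters of this list are shown because its genes were higher together. Promoters of such genes are known for CCAAT boxes and for a cell cycle element with the core TTTGAA. The 150 bases before the RefSeq start (build GRCm38.p6, given 5′ to 3′ on the strand of the gene) are printed for the 3 cycle genes of the rule and for the 2 other G2/M genes with the most UMIs in members. Capitals mark CCAAT or its reverse complement ATTGG, and TTTGAA or its reverse complement TTCAAA. The windows lie at chr7:135716380-135716529 (Mki67, a coat protein of mitotic chromosomes, minus strand), chr11:99024190-99024339 (Top2a, topoisomerase II alpha, minus strand), chr11:117849087-117849236 (Birc5, survivin, plus strand), chr8:57511693-57511842 (Hmgb2, a chromatin protein of dividing cells, plus strand) and chr2:164769779-164769928 (Ube2c, plus strand).
Mki67: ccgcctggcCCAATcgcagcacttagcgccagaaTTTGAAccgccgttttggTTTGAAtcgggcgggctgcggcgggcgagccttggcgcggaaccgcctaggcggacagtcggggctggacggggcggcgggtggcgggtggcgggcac
Top2a: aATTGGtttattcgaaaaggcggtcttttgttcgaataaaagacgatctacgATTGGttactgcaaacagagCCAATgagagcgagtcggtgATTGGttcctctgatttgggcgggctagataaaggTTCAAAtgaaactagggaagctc
Birc5: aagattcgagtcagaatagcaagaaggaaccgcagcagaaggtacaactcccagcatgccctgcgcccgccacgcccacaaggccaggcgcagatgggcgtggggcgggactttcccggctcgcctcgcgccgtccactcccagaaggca
Hmgb2: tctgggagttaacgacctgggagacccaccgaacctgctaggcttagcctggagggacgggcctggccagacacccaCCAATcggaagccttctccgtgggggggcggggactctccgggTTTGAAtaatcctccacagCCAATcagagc
Ube2c: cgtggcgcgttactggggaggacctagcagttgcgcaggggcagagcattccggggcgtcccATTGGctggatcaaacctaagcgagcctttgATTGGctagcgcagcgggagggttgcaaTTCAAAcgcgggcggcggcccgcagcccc

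Over the RefSeq windows of 300 bases, from 250 before to 50 after the start, CCAAT was found on either strand in 45 of the 57 windows of the 52 G2/M genes matched by symbol (78.9%) and TTTGAA in 40 (70.2%). Of all 32851 windows in the table, 37.4% held CCAAT and 17.9% held TTTGAA. Both were found in 63.2% of the G2/M windows and in 6.95% of all windows. In the 35 windows of G1/S genes CCAAT was present in 62.9% and TTTGAA in 14.3%, and in the 27 windows of monocyte identity genes in 33.3% and 18.5%. The bases printed for Birc5, which stood at 838 CPM in members, hold neither. The matches describe the sequences and were not tested against the measured levels.

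The members made up 3.53% of the kept cells in KO library 1 (exact 95% Clopper-Pearson interval 3.19% to 3.899%) and 3.77% in KO library 2 (3.38% to 4.18%). In the WT libraries they made up 1.96% (1.70% to 2.24%) and 1.88% (1.61% to 2.18%), and these intervals cover counting error only. Both KO libraries lay above both WT libraries. The mean share was 3.65% ± 0.165 in KO and 1.92% ± 0.0571 in WT (SD, n = 2 libraries), a ratio of 1.90. The difference of 1.73 percentage points was larger than the spread within a genotype, but the two-sided exact permutation test over 4 libraries gave p = 0.333, the smallest value that 2 against 2 libraries allow. Without the 171 members that carried UMIs of another lineage (49, 42, 55 and 25 cells), which are described further on, the ratio was 2.10.

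The neighbouring classes were also larger in KO. Non-cycling monocytes made up 5.90% and 7.75% of KO cells and 3.67% and 3.46% of WT cells, a ratio of 1.91. Granule-rich cycling cells made up 6.99% and 7.67% of KO cells and 2.57% and 2.50% of WT cells, a ratio of 2.89. Of the members and the granule-rich cells together, the members made up 33.6% and 32.9% in KO and 43.2% and 42.9% in WT, without overlap of the genotypes. The granule limit counts raw UMIs, so this split depends on the depth of the cells as well. Neither the split nor the shares of the neighbouring classes were computed at equal depth, so a shift between the classes cannot be read from them.

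**Figure D1:**
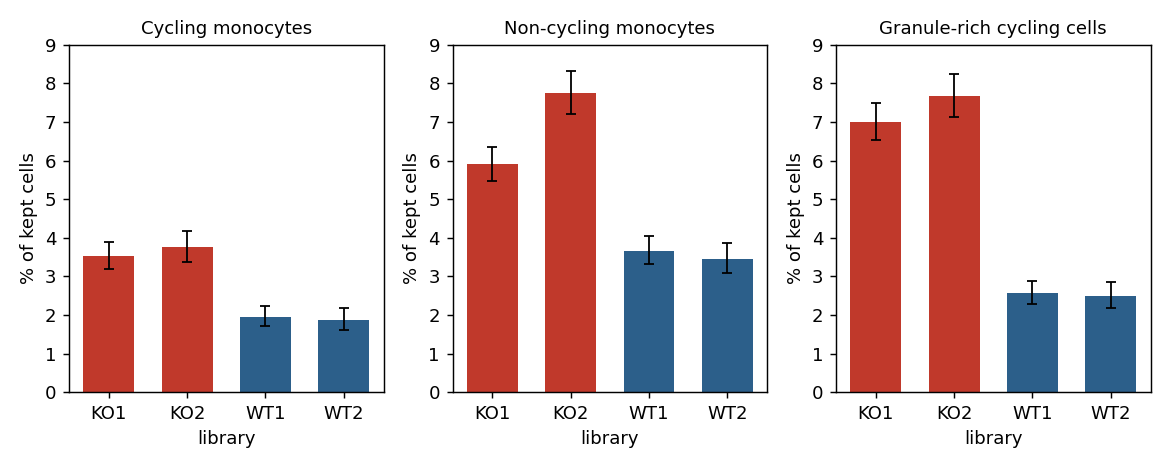
Share of kept cells (%) in each of the 4 libraries for cycling monocytes, non-cycling monocytes and granule-rich cycling cells, with exact 95% Clopper-Pearson intervals that cover counting error only. Both KO bars stand above both WT bars in each panel, at 3.53% and 3.77% against 1.96% and 1.88% for cycling monocytes.

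Whether a cell passes a limit on raw UMIs depends on its depth, and kept cells were deeper in KO (median 2545 and 3618 UMIs) than in WT (1759 and 2287 UMIs). All cells that met the monocyte conditions were therefore thinned at random to 3000 UMIs and shallower cells were left out. At this depth 42.8% and 35.4% of KO cells and 49.1% and 42.2% of WT cells had at least 2 cycle UMIs. The genotypes overlapped at this depth, and the exact permutation test, which does not pair libraries, gave p = 0.667. Between libraries of the same number the differences were -6.25 and -6.84 percentage points. At 5000 UMIs the shares were 76.1% and 60.9% in KO and 81.8% and 77.6% in WT, and with a limit of 1 cycle UMI at 3000 UMIs they were 50.8%, 40.9%, 57.3% and 53.1%, in both cases without overlap. At 2000 UMIs they were 31.8% and 26.4% in KO and 31.3% and 29.2% in WT, with overlap. There the differences between libraries of the same number were 0.514 and -2.75 percentage points, with no common sign. Without thinning the shares were 34.8% and 30.8% in KO and 33.0% and 31.9% in WT, so that the sign of the mean difference turned from -6.54 to 0.396 percentage points. With the whole rule applied after every kept cell was thinned to 3000 UMIs, the members made up 9.35% and 7.17% of the remaining KO cells and 7.09% and 4.97% of the remaining WT cells.

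Most monocyte identity genes were lower in members than in non-cycling monocytes, and most G2/M genes were higher in members than in either neighbouring class. The classes were cut from the same UMIs, so these differences are described without a test. Members and granule-rich cells passed the same raw limit of 2 cycle UMIs, although granule-rich cells were deeper in every library. The limit thus took in granule-rich cells at a lower share of cycle UMIs, and their lower G2/M levels are partly fixed by it. Of 60 G2/M genes outside the rule with at least 10 CPM in a class, 59 were higher in members than in non-cycling monocytes in all 4 libraries, with a median log2 ratio of 4.56. Against granule-rich cells 57 of the 60 were higher in all 4 libraries, with a median of 0.63. Over all 7976 genes at this level 29.8% were higher and 27.5% lower than in non-cycling monocytes in all 4 libraries, and 37.4% were higher and 23.8% lower than in granule-rich cells. Of 12 erythroid genes 8 were higher than in non-cycling monocytes (median 1.64) and 12 higher than in granule-rich cells (median 1.76). Of 14 B lineage genes 2 were higher and 5 lower than in non-cycling monocytes (median -0.24), and 8 were higher than in granule-rich cells (median 1.03). Their part in the other differences was not tested.

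Among single G2/M genes Prc1, which bundles the spindle midzone, stood at 169 ± 13.4 CPM in members, at 1.51 ± 1.94 in non-cycling monocytes and at 91.8 ± 14.5 in granule-rich cells (SD, n = 4 libraries). The spindle motor Kif11 stood at 158, 1.52 and 82.6 CPM in the same order, and the mitotic kinase Plk1 at 93.0, 0.764 and 60.5. Mxd3, a MAX-binding repressor of proliferating cells, stood at 90.5, 0.231 and 33.3. In each of these genes all 4 member values lay above all 8 values of the other classes. The chromatid cohesion factor Esco2, the spindle proteins Hmmr and Nusap1 and the mitotic kinase Pbk also belonged to the 10 genes with the largest ratio to non-cycling monocytes. These 10 were taken among genes with at least 50 CPM in members. The other 2 were the immunoglobulin genes Ighv1-53 and Iglv2, which were read almost only in KO library 1 among the members.

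The G1/S genes behaved otherwise. Of 42 members of this list 41 were higher than in non-cycling monocytes in all 4 libraries (median log2 ratio 2.43), whereas 8 were higher and 17 lower than in granule-rich cells (median -0.14), beside 37.4% and 23.8% of all genes. Mcm3, a subunit of the replicative helicase, stood at 114 ± 18.3 CPM in members and at 142 ± 13.7 in granule-rich cells. Of 36 replication-dependent histone genes, whose RNA is made in S phase, 27 were higher in members than in granule-rich cells in all 4 libraries (median 0.68).

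The monocyte genes placed the members between the neighbouring classes. Of 24 monocyte identity genes outside the rule, 19 were lower than in non-cycling monocytes in all 4 libraries (median log2 ratio -0.76) and 20 were higher than in granule-rich cells (median 1.18), beside 27.5% and 37.4% of all genes. Lgals3 stood at 2325, 2826 and 873 CPM in members, non-cycling monocytes and granule-rich cells. S100a4 stood at 351, 504 and 99.3 in the same order, and the fractalkine receptor Cx3cr1 at 59.3, 141 and 21.9. Ly6c2 ran the other way, at 3881, 3254 and 5450, as did Irf8, a transcription factor of the monocyte and dendritic cell lineages, at 413, 297 and 509. Klf4, a transcription factor needed for monocyte formation, was highest in members, at 199 ± 38.7 against 132 ± 38.7 and 112 ± 25.02.

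Most interferon-stimulated genes followed the same order as the monocyte genes. Of 58 interferon-stimulated genes 52 were lower than in non-cycling monocytes in all 4 libraries (median -0.90) and 44 were higher than in granule-rich cells (median 1.11), again beside 27.5% and 37.4% of all genes. Ifi27l2a stood at 1600 and 2370 CPM in the KO members and at 3186 and 1278 in the WT members, and its means in the 3 classes were 2108, 3693 and 416. The 2 WT libraries thus lay on either side of both KO libraries. Of 32 antigen presentation genes 18 were lower than in non-cycling monocytes in all 4 libraries (median -0.45), while 16 were higher and 6 lower than in granule-rich cells (median 0.15), where 37.4% and 23.8% of all genes were higher and lower. Cd74, the invariant chain of MHC class II, stood at 376 ± 183 in members, 1853 ± 663 in non-cycling monocytes and 169 ± 65.4 in granule-rich cells. The class II genes H2-Ab1, H2-Aa and H2-Eb1 were with Cd74 among the 10 genes furthest below non-cycling monocytes, of those with at least 50 CPM in members. Of 13 dendritic cell markers at 10 CPM or more, a list that includes these 4 genes, 10 were lower than in non-cycling monocytes in all 4 libraries (median -1.10) and 10 were higher than in granule-rich cells (median 0.87). Their part in the antigen presentation values was not tested. Apoe, a lipid carrier of macrophages, led the 10 genes at 123 ± 50.6 against 1219 ± 316. Wfdc17, Gm9733, Slfn1, Clec4a3 and Igkc completed the 10. Of 7 macrophage markers at 10 CPM or more, 6 were lower than in non-cycling monocytes in all 4 libraries (median -1.20). Against granule-rich cells 5 of them were higher and 2 lower (median 1.19).

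Among genes with at least 50 CPM in members, the largest ratios over granule-rich cells were those of the light chain genes Iglv2 and Iglv1, which rested on 1 library. Iglv2 stood at 2818 CPM in the members of KO library 1 and at 0, 0 and 0.898 in the others, and Iglv1 at 264, 13.7, 21.1 and 2.69. Next came Ms4a8a (59.4 against 6.42 CPM), the Src family kinase Fgr (55.5 against 6.52) and the chemokine Ccl6 (674 ± 21.3 against 106 ± 20.3). Plbd1, Ifi27l2a, Slfn1 and Pid1 belonged to the same 10 genes, as did Iglc2. At the same limit the members were furthest below in Srgn, the proteoglycan core of granules, at 159 ± 7.78 against 1212 ± 360. The endoplasmic reticulum proteins Calr (83.2 against 414) and Pdia6 (97.3 against 288) and Mif (212 against 807) were lower too. Mt1, C1qbp, Serpinb1a, Gstm1, Anxa3 and Pebp1 completed the 10. Ms4a3, a gene of granulocyte-monocyte precursors, stood at 3.64 ± 0.588 in members and at 485 ± 142 in granule-rich cells, although it was no part of the rule, a larger ratio than that of Srgn in a gene under the limit of 50 CPM.

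**Figure D2:**
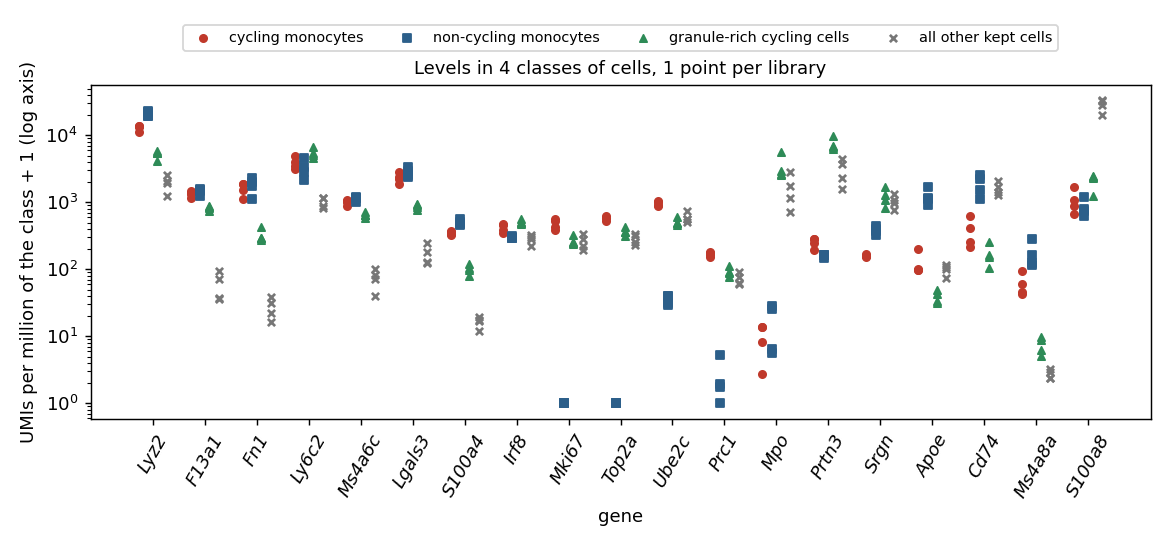
CPM of the class plus 1 (log axis) for 19 genes in cycling monocytes, non-cycling monocytes, granule-rich cycling cells and all other kept cells, with 1 point per library. Lgals3, S100a4 and Ms4a8a run downwards from non-cycling monocytes through cycling monocytes to granule-rich cells, while Ube2c and Prc1 are highest in cycling monocytes; Lyz2, F13a1, Fn1, Mki67, Top2a, Mpo and Prtn3 were used to cut the classes.

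The G1/S and G2/M transcripts of the members were counted at equal depth. Members with at least 5000 UMIs (259 and 264 in KO, 113 and 115 in WT) were thinned to 5000 UMIs, and the UMIs of the G1/S list and of the G2/M list without the rule genes were summed in each cell. The mean G2/M sum was 70.0 and 71.0 UMIs in KO and 64.9 and 66.9 UMIs in WT. Both KO libraries lay above both WT libraries by a mean of 4.61 UMIs, with the smallest exact permutation p of the design (p = 0.333). The mean G1/S sum was 17.5 and 15.8 UMIs in KO and 16.6 and 17.8 UMIs in WT, where the genotypes overlapped (exact permutation p = 0.667).

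The lists are of unequal abundance, and members were chosen by G2/M genes, so which sum is larger in a cell is partly fixed and gives no phase. Hmgb2 alone, at 4327 to 4865 CPM in members (scaled by edgeR's normalization factors), exceeded the whole G1/S list, at 3188 to 3666 CPM. Members with more G1/S than G2/M UMIs made up 10.4% and 9.85% of the KO members and 7.96% and 13.04% of the WT members at 5000 UMIs. The genotypes overlapped, and the means of 10.1% ± 0.407 and 10.5% ± 3.59 differed by less than the spread between the WT libraries (exact permutation p = 1.0). Over all members without thinning the shares were 10.2% and 10.4% in KO and 12.1% and 16.2% in WT, and at 3000 UMIs they were 11.9%, 9.81%, 14.3% and 13.2%, where in both cases the WT libraries lay above the KO libraries. In granule-rich cells the same share was 29.1%, 32.7%, 24.6% and 21.7%. Their mean G2/M sum was 43.7, 40.3, 42.2 and 46.5 UMIs, below the members in each library. Cells were thinned after they were chosen, so the unlike effect of the raw cycle limit on the 2 classes remains in these values. Over the members of a library the 2 sums ran against each other, with a Pearson correlation of -0.70, -0.50, -0.56 and -0.65. The 2 lists share the fixed total of 5000 UMIs per cell, so these correlations are a description.

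**Figure D3:**
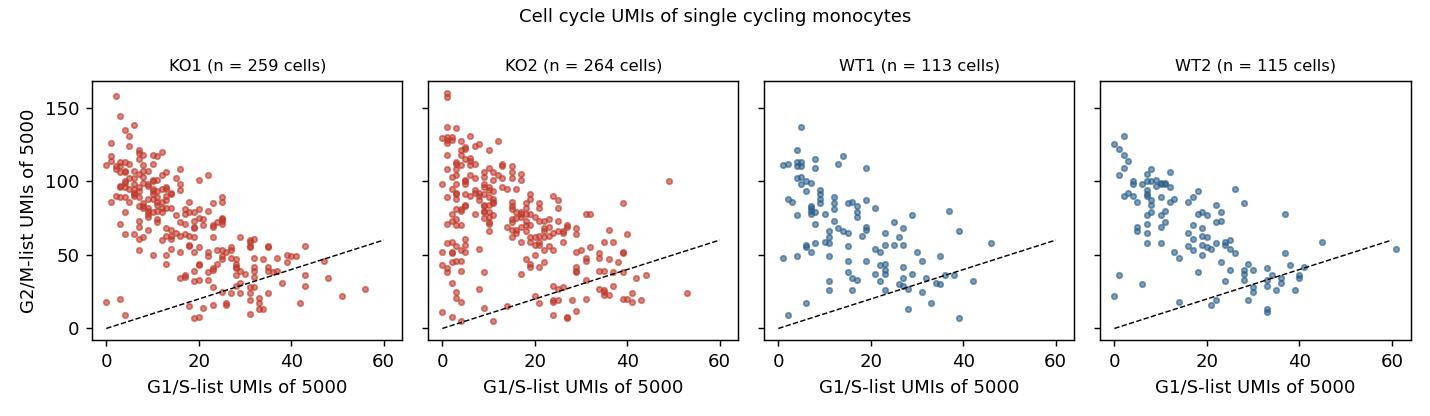
G1/S-list against G2/M-list UMIs per cell for cycling monocytes thinned to 5000 UMIs, 1 panel per library and 1 point per cell, with the dashed line where both sums are equal. Most cells lie above the line, with 10.4%, 9.85%, 7.96% and 13.04% below it, and the sums run against each other in every library.

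The members with more G1/S UMIs differed little from the others in Ly6c2 and Spi1. In cells with more G1/S than G2/M UMIs (39, 35, 25 and 27 cells) Ly6c2 stood at 4196 CPM, against 3844 in the other members, and Spi1, which encodes the myeloid transcription factor PU.1, at 370 against 351. Klf4 stood lower, at 130 against 208, and Lgals3 at 1934 against 2377, each in all 4 libraries. By construction the genes of the lists parted, with Ube2c at 45.4 against 1084 CPM and Ung, which removes uracil from DNA, at 55.7 against 3.21.

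The members also differed among themselves in what was left of the granule genes. No UMI of the 4 granule genes was found in 20.5% and 25.9% of KO members and in 30.4% and 19.2% of WT members, and 3 to 9 UMIs were found in 45.1%, 40.8%, 34.8% and 46.1%. Members with 3 to 9 such UMIs were deeper (median 6947, 8386, 5798 and 7181 UMIs) than those with none (5047, 5535, 4238 and 4846 UMIs). In CPM they held more Ly6c2, at 4548 against 2764, and more Trem2, a lipid receptor of myeloid cells, at 51.1 against 17.0. They held less of the class II gene H2-Aa, at 45.4 against 214, and of Cd209a, a lectin of monocyte-derived dendritic cells, at 14.2 against 86.2. Each of these differences had the same direction in all 4 libraries. Irf8 stood at 462 against 347, also higher in all 4 libraries, while Lgals3 stood at 2314 against 2268 with no common direction. Erythroid genes were lower in the cells with granule UMIs as well, with Hba-a1 at 415 against 1687.

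Some members carried transcripts of other lineages. At least 3 UMIs of the B lineage, plasma cell, T and NK cell, basophil or megakaryocyte markers, or at least 1% of UMIs from globin genes, were counted in 12.9% and 12.5% of KO members and in 26.6% and 14.97% of WT members. In non-cycling monocytes the shares were 5.03%, 6.51%, 12.4% and 10.7%. B lineage UMIs passed the limit in 6.82%, 7.14%, 15.5% and 8.98% of members, and erythroid UMIs in 3.94%, 2.38%, 10.6% and 4.19%. In each of these measures among members each WT library lay above both KO libraries. T and NK cell UMIs passed the limit in 3 and 7 KO members (0.787% and 2.08%), in 0 of 207 members of WT library 1 (exact upper bound 1.77%) and in 1 member of WT library 2 (0.599%). Plasma cell UMIs did so in 2 members of KO library 1 (0.525%) and in none of the other libraries.

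Summed over all members, 13 erythroid genes reached 5133 and 1370 CPM (here and from here on scaled by edgeR's normalization factors) in KO and 17595 and 3815 in WT, with Hbb-bs as the most abundant. The 19 B lineage genes reached 652 and 607 CPM in KO and 1162 and 1075 in WT, with Ighm as the most abundant, and none of the 19 was at 0 in every library. The 10 richest cells of a library held 70.5% to 97.3% of its globin UMIs. The doublet score of Scrublet, cut at the expected rate of each library, marked 16.3% and 13.4% of KO members and 24.6% and 16.2% of WT members. It marked 8.63%, 7.13%, 8.46% and 7.12% of all kept cells and 7.08%, 7.09%, 9.54% and 9.74% of non-cycling monocytes, less than of the members in each library. Results were therefore also computed without the cells past these limits. Separately, 112 to 185 barcodes of kept cells were found in both libraries of a pair, with 1 barcode shared between members. The number expected for unrelated libraries is not given here, so these counts are a description and no sign of mixing.

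Genotypes were compared on UMIs summed over the members of each library with edgeR's quasi-likelihood test, with Benjamini-Hochberg adjustment over all genes tested. Such a sum does not tell a change in every cell from a change in the mix of cells. Of 8551 genes 20 passed an adjusted p of 0.05 (0.234%), of which 7 were higher in KO (0.0819% of the genes) and 13 lower (0.152%). Before adjustment 529 genes were below 0.05 (6.19%). Calls were chosen by the genotype difference, so genotypes that do not overlap in a call add no support to it. The share of all genes tested without overlap is not given here. No gene passed when KO library 2 was left out (0 higher and 0 lower, with 254 genes at an unadjusted p under 0.05), whereas 22 higher and 61 lower genes passed without KO library 1. Each fit without a library leaves 1 library in that genotype, which is assumed to vary like the 2 libraries of the other genotype. The comparisons in the 3 classes share the same 4 mice, so values in the neighbouring classes are set side by side and do not repeat the test.

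Tlr9 itself (chr9:106222598-106226883, build GRCm38, as for all gene positions given here) was sparse. It had 3 and 1 UMIs in the KO members and 7 and 6 UMIs in the WT members, or 1.29, 0.390, 6.30 and 5.45 CPM, too few for the test. Both WT libraries lay above both KO libraries. The assay reads the 5′ end of transcripts, and whether the counted part lies inside the disrupted stretch is not given in the sources used here.

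Arsb encodes arylsulfatase B, a lysosomal enzyme that removes sulfate from dermatan and chondroitin chains (chr13:93771630-93943016). It stood at 203 and 192 CPM in KO members and at 33.3 and 49.96 CPM in WT members. The log2 fold change was 2.24 (SE 0.22, adjusted p = 0.00477), and the groups did not overlap. In non-cycling monocytes the means were 170 and 25.3 CPM and in granule-rich cells 125 and 55.7 CPM. It remained higher in all 15 alternatives, with a log2 fold change between 2.00 and 2.57, and lost its call only without KO library 2.

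Ocel1, a gene of the occludin and ELL domain family (chr8:71371298-71379361), stood at 150 and 159 CPM in KO and at 49.5 and 47.2 CPM in WT (log2 fold change 1.67, SE 0.18, adjusted p = 0.00639). Adat2, the catalytic subunit of the tRNA adenosine deaminase (chr10:13552894-13563376), stood at 50.2 and 51.8 CPM in KO and at 16.2 and 19.1 CPM in WT (1.53, SE 0.24, adjusted p = 0.0455). Neither gene overlapped between the genotypes. Ocel1 lost its call only without KO library 2, while Adat2 kept its own in 8 of 15 alternatives.

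Several genes were read in 1 genotype only. Gm6594, a processed pseudogene (chr17:82539260-82539545), had 132 and 203 UMIs in KO members and 0 in WT members, at least 51.3-fold higher when 3 UMIs over the WT members are taken as the limit of a count of 0. BC018473, annotated as an antisense RNA (chr11:116752167-116759373), had 87 and 97 UMIs in KO and 0 in WT, at least 28.2-fold higher. Galnt9, which starts mucin-type sugar chains (chr5:110544355-110621380), had 0 UMIs in KO and 23 and 27 UMIs in WT, at least 36.3-fold lower. Reads of a pseudogene may be shared with its parent gene, so the value of Gm6594 is uncertain.

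Cyp4f18, a cytochrome P450 that hydroxylates leukotriene B4 (chr8:71988482-72009626), was lower in KO. It stood at 15.5 and 17.5 CPM in KO members and at 84.6 and 102 CPM in WT members (log2 fold change -2.49, SE 0.22, adjusted p = 0.00455). The means were 24.5 and 206 CPM in non-cycling monocytes and 6.20 and 48.3 CPM in granule-rich cells. Cndp2, a cytosolic dipeptidase, stood at 17.2 and 19.9 CPM in KO and at 61.2 and 63.6 CPM in WT (-1.75, SE 0.22, adjusted p = 0.0127). For both genes every WT value was above every KO value, and the call was lost only without KO library 2.

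Mettl23, a histone arginine methyltransferase (chr11:116843278-116854263), stood at 47.2 and 45.2 CPM in KO and at 116 and 102 CPM in WT (log2 fold change -1.24, SE 0.19, adjusted p = 0.0439), and was called in 7 of 15 alternatives. Trim30d, of the tripartite motif family (chr7:104470014-104507849), stood at 0.858 and 0.779 CPM in KO and at 33.3 and 18.2 CPM in WT (-4.86, SE 0.54, adjusted p = 0.00709). Its neighbours Trim12a (chr7:104299894-104315466) and Trim5 (chr7:104263386-104288094) were lower as well, at a WT mean under 20 CPM. Trim5, which had 0 and 1 UMIs in KO and 12 and 14 in WT, was called in 7 of 13 alternatives. These genes belong to a family of close copies, among which reads may be divided uncertainly.

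The calls that remained stood below 20 CPM or belonged to other lineages. Gm35082 and Hist1h2bl were higher in KO and Gm16867, Plekhg1 and Gm34084 were lower, and those of the calls under 20 CPM that are on no list are named after their values were seen, to complete the calls. Vpreb3, part of the pre-B cell receptor complex, stood at 67.4 and 65.1 CPM in KO and at 213 and 196 CPM in WT (log2 fold change -1.63, adjusted p = 0.00589), and the B lineage factor Ebf1 at 53.7, 46.8, 141 and 125 CPM (-1.41, adjusted p = 0.0172). Hba-a1, an alpha globin with a close copy in Hba-a2, stood at 432 and 351 CPM in KO and at 1589 and 1139 CPM in WT (-1.80, adjusted p = 0.0111). Without the members that carried UMIs of another lineage, Vpreb3 and Ebf1 were too low to be tested and the log2 fold change of Hba-a1 was 0.0059. That setting removes cells by UMIs of these same genes, so the loss of these 3 calls follows from its construction. Without high doublet scores the log2 fold changes were -3.06 for Vpreb3, -3.25 for Ebf1 and -1.35 for Hba-a1, and of these Ebf1 kept its call. In the fit without cells of other lineages 4 genes were higher (Arsb, Ocel1, BC018473 and Gm6594) and 6 were lower (Cyp4f18, Cndp2, Galnt9, Trim12a, Trim30d and Plekhg1).

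**Figure D4:**
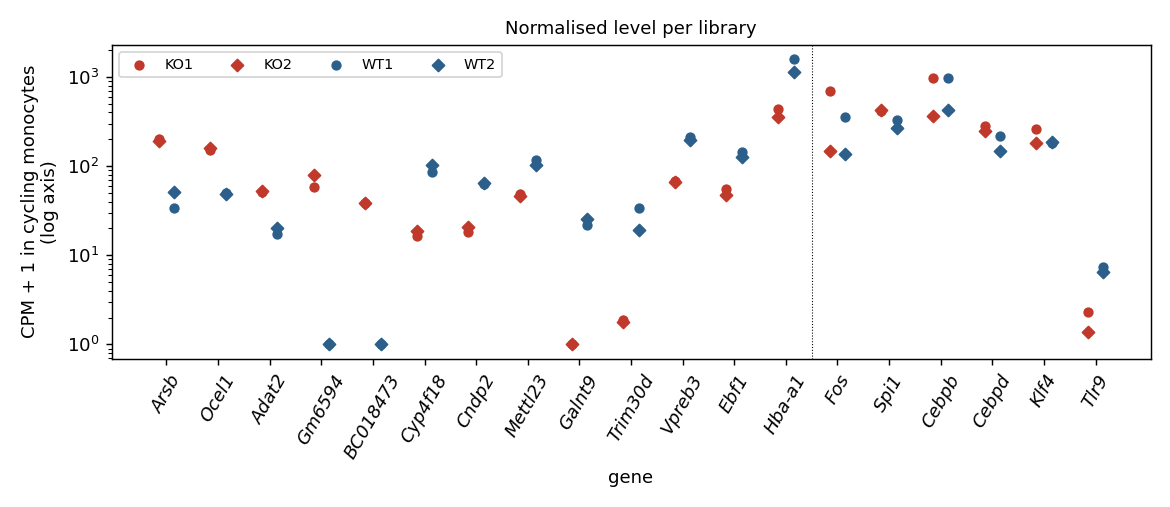
CPM plus 1 (log axis) in the cycling monocytes of each library, with 13 genes past an adjusted p of 0.05 to the left of the dotted line and 5 regulators named by the study and Tlr9 to the right. The genes on the left were chosen by their genotype difference, so that their KO and WT points do not overlap follows from the choice. For Fos the KO points (696 and 147 CPM) lie on either side of one WT point (356 CPM).

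The regulators that the study followed in monocytes were read in the members too. Spi1 stood at 418 and 419 CPM in KO and at 325 and 263 CPM in WT (log2 fold change 0.51, SE 0.17, unadjusted p = 0.0164 and adjusted p = 0.750 by edgeR). The groups did not overlap, which with 2 against 2 libraries is no evidence by itself. Spi1 was not called in any of 15 alternatives, with a log2 fold change between 0.37 and 0.69. Cebpd, an acute phase factor, stood at 279, 247, 217 and 148 CPM (0.53, SE 0.21, adjusted p = 0.763). Klf4 stood at 259 and 183 CPM in KO and at 178 and 183 CPM in WT (0.29, adjusted p = 0.858).

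Fos, a subunit of the AP-1 factor, differed more between the libraries of a genotype than between genotypes. It stood at 696 and 147 CPM in KO and at 356 and 137 CPM in WT (log2 fold change 0.77, SE 0.62, adjusted p = 0.886), and the log2 fold change was -0.74 without KO library 1 and 1.64 without WT library 1. The latter fit had an adjusted p of 0.0397, with the spread taken from the KO libraries alone. Cebpb stood at 969 and 364 CPM in KO and at 959 and 428 CPM in WT (-0.06, SE 0.45, adjusted p = 0.997). In both genes the libraries numbered 1 were above the libraries numbered 2. Between libraries of the same number Fos was higher in KO each time, and Cebpb was higher in KO for number 1 and lower for number 2. The labels do not say that the numbers mark the experiments, and a fit with the number as a block called neither gene. Tnfrsf11a, the receptor RANK on osteoclast precursors, had 14 and 14 UMIs in KO and 10 and 1 UMIs in WT (0.20, SE 0.70, adjusted p = 0.989). Csf1r, a gene of the rule, stood at 87.6 and 108 CPM in KO and at 79.2 and 105 CPM in WT.

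Gene lists were described by their counts and medians, beside a median log2 fold change of -0.02 over the 8537 genes tested outside the rule, of which 47.4% were positive. Of 60 G2/M genes 46 were positive, with a median of 0.15 that stayed between 0.09 and 0.20 over 15 alternatives, and none passed the adjusted threshold. Hmgb2 stood at 4612, 4327, 4333 and 4865 CPM (-0.04), Ube2c at 1041, 1010, 909 and 930 CPM (0.16), and the centromeric histone Cenpa at 526, 598, 471 and 456 CPM (0.28, adjusted p = 0.827). Of 42 G1/S genes 33 were negative, with a median of -0.20 (range -0.27 to -0.11) and none called. Dut, which clears dUTP, stood at 373 and 300 CPM in KO and at 409 and 378 CPM in WT (-0.22, adjusted p = 0.885).

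Of 44 replication-dependent histone genes 36 were negative, with a median of -0.40 (range -0.62 to -0.23). Hist1h2bl went the other way and was the single call, at 19.7 and 16.8 CPM in KO and at 0.900 and 2.73 CPM in WT (3.28, SE 0.51, adjusted p = 0.0485), and was called in 7 of 15 alternatives. Hist1h2ae stood at 540 and 397 CPM in KO and at 622 and 616 CPM in WT (-0.40, adjusted p = 0.794). Histone genes are near-identical copies whose reads may be divided uncertainly. In non-cycling monocytes the medians were -0.13 for 22 G2/M genes, -0.21 for 26 G1/S genes and -0.54 for 15 histone genes.

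Of 63 lysosomal genes 38 were positive (median 0.07, 0.009 without KO library 2 and 0.15 without WT library 1) and Arsb was the single call. The next by p were Fuca1, a lysosomal fucosidase, at 136, 173, 67.5 and 69.9 CPM (1.17, adjusted p = 0.0649), and the protease Ctsl at 61.4, 69.0, 32.4 and 15.4 CPM (1.44, adjusted p = 0.158), which were chosen after their values were seen. Neither gene overlapped between the genotypes, and since both were picked by p, this adds no support. The most abundant, Psap, stood at 2520 and 2773 CPM in KO and at 2912 and 3272 CPM in WT (-0.22, adjusted p = 0.886). Of 31 antigen presentation genes 25 were negative (median -0.19) and none was called, with B2m at 993, 954, 1293 and 1007 CPM. The median was 0.044 without WT library 1 and -0.36 without WT library 2, so the direction rested on 1 library. The dendritic cell markers, which share 4 genes with this list, had a median of -0.27, with 0.47 and -0.81 in the same fits, and summed to 630 and 937 CPM in KO and 1301 and 547 CPM in WT, with Cd74 as the most abundant and 1 of 19 at 0 in every library. Their part in the result was not tested. Of 38 osteoclast differentiation genes 18 were positive (median -0.01), and none was called. These 3 subjects were named by the study on the same samples, so their lists are not independent evidence.

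Of 51 interferon-stimulated genes 41 were negative (median -0.26) and Trim30d was the single call. The median was 0.22 without WT library 1 and -0.65 without WT library 2, so the list had no direction shared by both WT libraries. Its summed level was 9411 and 10400 CPM in KO and 14346 and 7809 CPM in WT, with the WT libraries on either side. Of 26 immediate early and heat shock genes 22 were positive (median 0.33), but the median was -0.14 without KO library 1. Hspa8, a chaperone, stood at 1407 and 1410 CPM in KO and at 1030 and 1009 CPM in WT (0.47, adjusted p = 0.763).

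Of 24 monocyte identity genes 17 were positive (median 0.14, 0.35 without WT library 1 and -0.04 without WT library 2), with Lgals3 at 2420, 2819, 2253 and 1881 CPM (0.34, adjusted p = 0.825). Of 36 myeloid transcription factor genes 23 were positive (median 0.21, range 0.05 to 0.27) and none was called. Irf8 stood at 479 and 449 CPM in KO and at 391 and 347 CPM in WT (0.33, adjusted p = 0.820). Of 33 genes of the TLR pathway 14 were positive (median -0.02), with Unc93b1, the chaperone that carries TLR9 to endosomes, at 302, 320, 329 and 273 CPM (0.05). Of 15 B lineage genes tested 14 were negative (median -1.15) with Vpreb3 and Ebf1 called, and of 13 erythroid genes 11 were negative (median -0.71) with Hba-a1 called. Without the cells of the lineage limits, which are set on UMIs of genes of these lists, these medians were -0.04 and 0.79, over the genes still tested. Without high doublet scores they were -2.22 and -1.31. The erythroid median was -0.25 without WT library 1 and -1.46 without WT library 2.

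**Figure D5:**
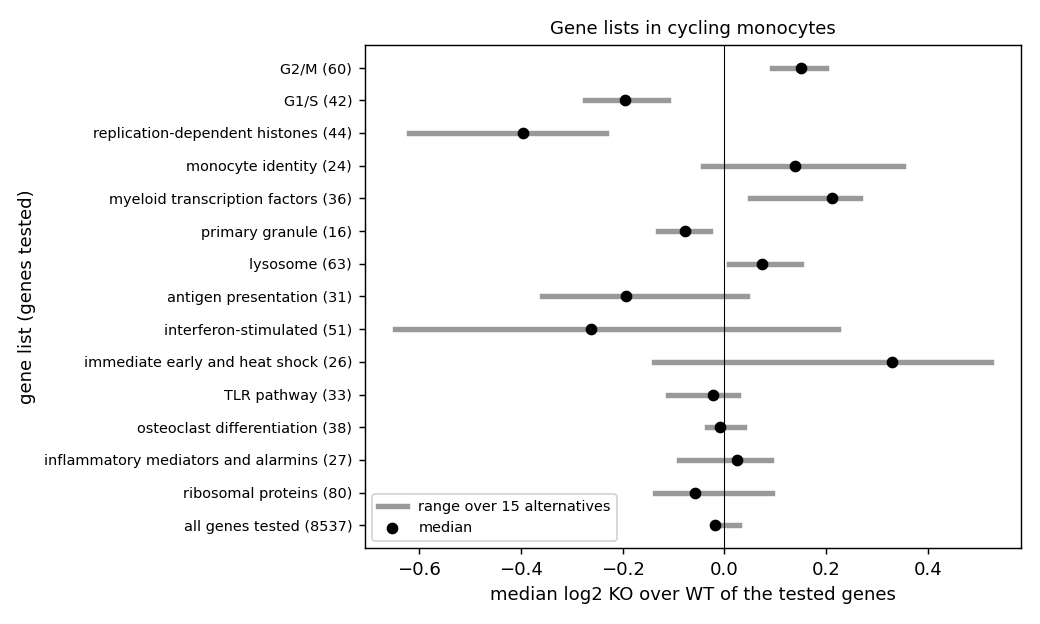
Median log2 KO over WT of the tested genes of each list in cycling monocytes (points), with the range of the median over 15 alternative settings (bars) and the number of genes tested in parentheses. G2/M genes lie above 0 and G1/S genes and histone genes below 0 under every alternative, while the bars of monocyte identity, antigen presentation, interferon-stimulated and immediate early and heat shock genes are among those that cross 0.

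Whether the genotype difference in members differed from that in non-cycling monocytes was tested with a class by genotype term and the library as a block. Of 9022 genes 7 passed an adjusted p of 0.05 (0.0776%), 6 with a higher KO over WT ratio in members (0.0665%) and 1 with a lower one (0.0111%), and 384 were below 0.05 before adjustment (4.26%). None of the 20 genes called in members was among them, and Arsb (difference of log2 fold changes -0.45, SE 0.25, adjusted p = 0.993) and Cyp4f18 (0.58, SE 0.25, adjusted p = 0.993) gave no call. Gm42031, a long intergenic RNA (chr8:85125872-85132289), kept its call in 11 of 12 alternatives. It stood at 143 and 69.6 CPM in KO members and at 179 and 195 CPM in WT members, and at 34.8, 21.1, 152 and 175 CPM in non-cycling monocytes, a difference of log2 fold changes of 1.70 (SE 0.18, adjusted p = 0.000169). Hist1h4i stood at 42.5, 21.8, 114 and 103 CPM in members and at 70.6, 22.2, 52.0 and 13.2 CPM in non-cycling monocytes (-2.19, SE 0.37, adjusted p = 0.0326). It was called in 9 of 12 alternatives, and its difference ran from -3.44 to -1.61. Among non-cycling monocytes 1 cell held 44.9% and 41.4% of its UMIs in the KO libraries and 48.2% in WT library 1. The other 5 were Jchain, Igha, Prg2, Ppbp and Igkv6-15, for which 1 cell held most of the UMIs in at least 1 library and class. The fit without the library block called no gene (0 higher and 0 lower, with 153 at an unadjusted p under 0.05), and DESeq2 called 1.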

How the data were processed

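Per the file headers, the deposited counts were whole UMI counts per gene and cell from Cell Ranger 3.0.1, and the authors' processing notes name STAR, mm10 and Seurat 2.3.4. Cells with 200 to 10000 genes and at most 10% mitochondrial UMIs were kept. Member UMIs were summed per library and tested with edgeR 4.0.16 (quasi-likelihood, TMM, filterByExpr, Benjamini-Hochberg) in R 4.3.3, with DESeq2 1.42.0 as an alternative. Gene positions came from GENCODE M21 (31011 of 31053 identifiers matched) and promoters from RefSeq. Doublets were kept, and Scrublet (scanpy 1.11.5) scores gave an alternative. Scripts were tested on simulated data. Alternatives changed the rule, depth, filter, scaling, tool, block or libraries, and the setting without cells of other lineages was chosen after seeing the data.

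Named genes were Tlr9, 7 regulators named by the study, up to 12 calls per direction of at least 20 CPM, the 3 most abundant members and all calls of each list, 5 genes of the class by genotype term, and the 10 largest ratios per direction against each class among genes of at least 50 CPM. Members and lists were chosen with earlier results of these data known.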

Additional observations from a re-analysis of the deposited data

Results flagged for a closer look

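The genotype difference differed between members and non-cycling monocytes in 7 genes by the class by genotype term of edgeR, given as the difference of log2 fold changes. Gm42031 differed by 1.70, and no cell held more than 8 of its UMIs in either class. Hist1h4i differed by -2.19. In non-cycling monocytes 1 cell held 62 of its 138 UMIs in KO library 1, 24 of 58 in KO library 2 and 27 of 56 in WT library 1.

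Jchain differed by 11.22 and Igha by 10.28. In KO library 1 a single member held 1627 of the 1638 Jchain UMIs, and a single member held 1132 of the 1137 Igha UMIs. In WT library 1 a single non-cycling monocyte held 773 of 780 and 1377 of 1378. Prg2 differed by 11.45, with 56 of its 57 UMIs in KO library 1 members in 1 cell. Igkv6-15 differed by 5.63, with 43 of its 45 UMIs in KO library 2 members in 1 cell. Ppbp differed by 3.76, with 522 of its 545 UMIs in WT library 1 non-cycling monocytes in 1 cell. Without the cells past the lineage limits only Gm42031 and Hist1h4i passed. Hist1h4i lost its call with DESeq2, without the library block and without KO library 1. Gm42031 lost its call only without the library block.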

How the results depend on the processing

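The share of members, KO minus WT, was 1.73 percentage points, and 1.42 with at least 5 cycle UMIs, 2.23 after thinning to 3000 UMIs (where the ratio of KO to WT was 1.37 in place of 1.90), 2.16 over cells neither neutrophil nor erythroid and 0.941 with granule UMIs under 3 (1.62 to 1.85 without 1 library). The cycling share differed by -6.54 points, by -1.12 at 2000 UMIs, by -11.1 at 5000 UMIs, by -9.35 with a limit of 1 cycle UMI and by 0.396 without thinning (-10.3 to -2.80 without 1 library). The share of members with more G1/S UMIs differed by -0.367 points, by -2.86 at 3000 UMIs and by -3.80 without thinning (-2.91 to 2.17 without 1 library, the higher value without WT library 2).

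Calls in members (7 higher and 13 lower) were 4 and 8 without high doublet scores, 4 and 6 without cells of other lineages, and 22 lower with granule UMIs under 3. Without 1 library they ran from 0 to 37 and from 0 to 77, with 0 and 0 without KO library 2. A replicate block gave 37 and 75. The numbers of the libraries are not stated to mark the 2 experiments of the study, and the deviations of libraries of the same number correlated at r = 0.25 over 8551 genes, with 2 pairs. Calls of the class by genotype term (6 and 1) were 19 and 12 with no filter on low counts, 1 and 0 with DESeq2, 1 higher without cells of other lineages, 2 lower without high doublet scores and 0 and 0 with no library block (2 to 24 and 2 to 15 without 1 library).

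The log2 fold change of Hba-a1 was 0.0059 without cells of other lineages, and that of Csf1r was -0.012 with at least 5 cycle UMIs. Without 1 library it ran from -0.74 to 1.64 for Fos, from -0.92 to 0.66 for Cebpb, from -0.64 to 2.60 for Tnfrsf11a and from -0.089 to 0.31 for Csf1r, and the difference for Ppbp from -1.59 to 4.60. The causes were not tested. Of the values for single genes under the alternatives, 374 kept direction and side of the threshold, 76 lost the threshold, 1 gained it and 9 reversed. These counts include Csf1r, a gene of the rule, whose values are a description and not a result. With 2 libraries per genotype no permutation test could go below p = 0.333.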
